A study of Macaca fascicularis with 11 samples.

Results

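The variable CpG cluster on chromosome 20 comprises all cytosines listed on that chromosome from position 31039000 to position 31048000, on both strands. The stretch was selected on the methylation ratios themselves, for their wide differences between animals in earlier results of these data. The spread between animals and the order of the animals are therefore given as a description, without a test. The cluster held 272 of the 61399 listed cytosines (0.443%), and 10.4% of the 2621 cytosines listed on chromosome 20.

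The data were RRBS methylation ratios, from 0 (unmethylated) to 1 (methylated), of quadriceps muscle biopsies from 11 adult male Cynomolgus macaques (Macaca fascicularis). All 11 animals form 1 group and are named M1 to M11 in the order of the deposited columns, whose headings could not be linked to single sample labels. The study's methods name MspI as the restriction enzyme, whereas the sample labels name MspI followed by TaqαI and a different bisulfite kit. Read counts are not part of the table, so the depth of a ratio is unknown beyond a minimum coverage of 10 reads and no counting interval was computed.

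In mammals, DNA methylation lies mainly on the cytosine of CpG dinucleotides. A CpG reads the same on both strands, and the maintenance methyltransferase DNMT1 copies methylation to the newly made strand after replication. RRBS enriches CpG-rich fragments near the cut sites of the enzyme and, after bisulfite conversion, reads the cytosine of each strand on its own. A whole biopsy averages over cells and over both alleles, so a methylated share of cells and a methylated share of alleles cannot be told apart. Positions are those of the authors' Cynomolgus macaque genome, whose sequence and gene annotation were not used here, so no gene or sequence is named.

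The 272 cytosines, 152 of the plus and 120 of the minus strand, fell into 4 segments, a segment being a run of at least 3 listed cytosines without a gap over 200 bp. Segment 1 spanned 1862 bp from 31039260 to 31041121 and held 225 cytosines. Segment 2 held 16 cytosines over 223 bp from 31044734 to 31044956, and segment 3 held 10 over 324 bp from 31045383 to 31045706. Segment 4 held 21 cytosines over 183 bp from 31047371 to 31047553. No listed cytosine lay between the segments, which were 3613, 427 and 1665 bp apart. Most of the cluster is thus segment 1, and the other 3 segments are short.

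The cluster was dense and stood alone on the chromosome. No other stretch of 9 kb in the table listed as many cytosines, the highest number elsewhere being 158 and the median 4. Of the 272 cytosines, 75.7% belonged to a CpG listed on both strands, compared with 12.9% of the cytosines outside. The 103 CpGs listed on both strands made up 2.55% of the 4043 such CpGs of the table, and the 272 cytosines covered 169 different CpGs.

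The cytosines next to either bound differed on the 2 sides. The first inside, at 31039260 on the plus strand, had ratios from 0.0347 to 0.710 with a median of 0.248, and the last inside, at 31047553 on the minus strand, had ratios from 0.0473 to 0.703 with a median of 0.230. At both, animal M1 was highest and animal M8 lowest. The nearest listed cytosine to the left, at 30691008 on the plus strand, lay 348252 bp from the first and had ratios from 0.143 to 0.477 with a median of 0.277. There, animal M3 was highest and animal M4 lowest, so the level was intermediate and the order of animals was another. The nearest to the right, at 45768560 on the minus strand, lay 14721007 bp from the last and was almost fully methylated, with ratios from 0.970 to 1 and a median of 1.

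The mean ratio of an animal over the 272 cytosines was 0.244 ± 0.176 (SD, n = 11). It was 0.652 in animal M1, 0.359 in M4, 0.312 in M3, 0.301 in M11, 0.276 in M6, 0.247 in M2, 0.211 in M9, 0.187 in M5, 0.0526 in M7, 0.0442 in M8 and 0.0424 in M10. Animal M1 stood alone at the top, 7 animals had intermediate ratios, and M7, M8 and M10 were nearly unmethylated. The lowest and the highest animal were 61.0 percentage points apart in the cluster and 1.56 percentage points apart over all other listed cytosines, where the mean ratio of an animal was 0.387 ± 0.00593 (SD, n = 11).

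The range over the 11 animals was at least 0.5 at 242 of the 272 cytosines, compared with 5.72% of all listed cytosines. It was lowest at 0.349, had a median of 0.628 and reached 1, whereas the median outside the cluster was 0.142. The range of 1 was that between M4 and the animals M8 and M10, at 31040678 on the plus strand, but the count of 242 rests on animal M1. Without it, 12 of the 272 cytosines had a range of at least 0.5, against 4.62% of all listed cytosines, and the lowest and the highest animal mean were 31.6 percentage points apart.

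Of the neighbours in the order of the animals, some were apart at nearly every cytosine and others were not. Animal M1 was above M4 at 270 of the 272 cytosines, by a mean ratio of 0.294 ± 0.0758 (SD over cytosines), and M5 was above M7 at 269, by 0.134 ± 0.0643. These are the borders of the intermediate animals, and little overlap was seen at either. Animal M3 was above M11 at 177 cytosines, by 0.0100 ± 0.0544, and M8 was above M10 at 131, by 0.00181 ± 0.0326. The remaining neighbours were in their order at 197 to 259 cytosines. Apart from the pairs at the borders, no pair of neighbours had a mean difference above its SD over cytosines.

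A higher background was found in 4 of the 11 animals, measured as the mean ratio at cytosines outside the cluster where the mean of the other animals is below 0.1. It was 5.35% in animal M2, 4.69% in M3, 4.67% in M4 and 4.51% in M5, and between 2.75% and 2.93% in the other 7. In the cluster these 4 animals took ranks 6, 3, 2 and 8 from the top, within the intermediate animals. Both ends of the order, M1 and the 3 nearly unmethylated animals, had the lower background, and the cluster means of the 3 were 4.24% to 5.26%. The part of background in the cluster's ratios was not tested.

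**Figure D1:**
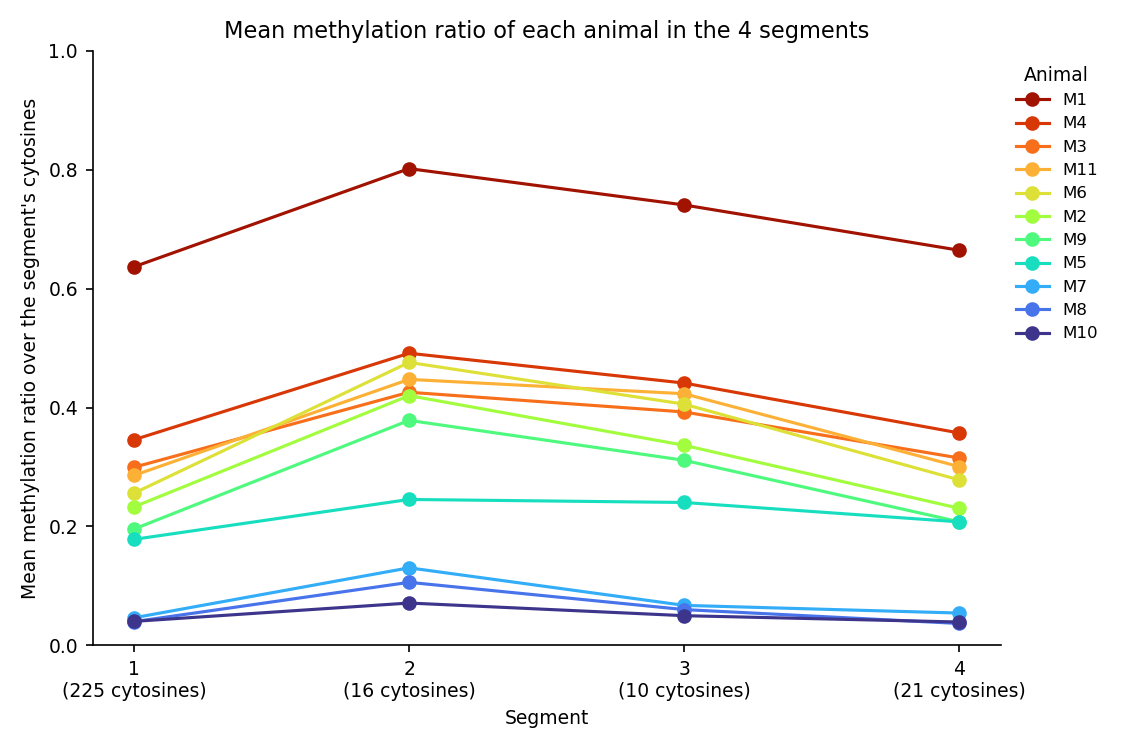
Mean methylation ratio (vertical axis, 0 to 1) of each of the 11 animals (1 coloured line each) in the 4 segments (horizontal axis). Animal M1 is highest in every segment, with 0.637, 0.802, 0.741 and 0.664, and animals M7, M8 and M10 lie below all others in each.

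Nearly the same order was found in each of the 4 segments. The mean ratio of an animal ranged from 0.0398 to 0.637 with a median of 0.233 in segment 1, and from 0.0711 to 0.802 with a median of 0.420 in segment 2. It ranged from 0.0499 to 0.741 with a median of 0.336 in segment 3, and from 0.0367 to 0.664 with a median of 0.230 in segment 4. As the plot of animal means by segment shows, 6 animals kept their rank in all 4 segments, namely M1, M4, M2, M9, M5 and M7. Exchanges were between M3, M11 and M6 and between M8 and M10. Over the 11 animals, the profiles of 2 segments correlated with Pearson's r from 0.971 to 0.999 and Spearman's rho from 0.955 to 1 in the 6 pairs of segments. Without the 2 animals farthest from the median, r was 0.945 to 0.996. The segments share the 11 libraries and the choice of the cluster used this pattern, so no p is given.

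The order of the animals also held at single cytosines. Each cytosine was compared with the mean profile of the other 3 segments by Spearman's rho over the 11 animals. The rho was at least 0.8 at 264 of the 272 cytosines, with a median of 0.955. Outside the cluster, 0.748% of the 60398 cytosines whose ratios were not all equal reached 0.8 with the mean profile of the cluster. Because the cluster was chosen for its differences between animals, a higher share inside was given in advance, and the 2 shares are a description. Kendall's W, the concordance of the ranks over cytosines, was 0.916 for the cluster, 0.918 in segment 1, 0.883 in segment 2, 0.967 in segment 3 and 0.963 in segment 4. Segment 2 thus had the lowest W, and its median rho of 0.895 was also the lowest of the 4 segments. Animal M1 was the highest at 269 cytosines, and M7, M8 and M10 were all below the other 8 animals at 261.

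The 8 cytosines with a rho below 0.8 were not spread evenly, as the plot of rho along the cluster shows. In segment 1, 4 of them lay close together, at 31039748, 31039758 and 31039765 on the plus strand (rho of 0.236, 0.387 and 0.413) and at 31039773 on the minus strand (0.409). The other 2 of segment 1 were at 31039550 (0.528) and 31040789 (0.773) on the plus strand, and the 2 of segment 2 were at 31044855 (0.782) and 31044862 (0.709) on the minus strand. These cytosines were singled out after their values were seen. At 31039748 the ratios ranged from 0.111 in animal M4 to 0.584 in M1, and M8, which was below 0.1 at 252 of the 272 cytosines, had 0.378. At 31039765 the ratios ranged from 0 to 0.377 with a median of 0.0909. At each of the 4, the ratios of the nearly unmethylated animals overlapped with those of the intermediate ones.

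**Figure D2:**
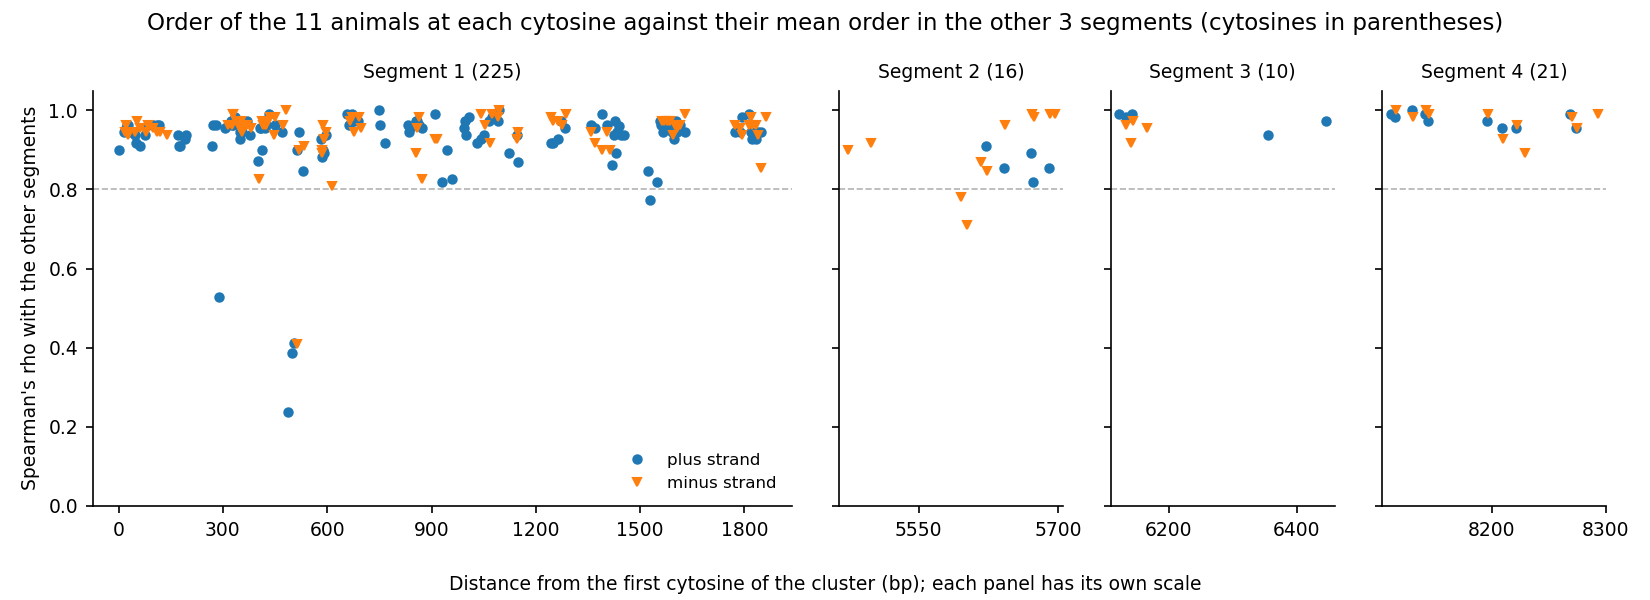
Spearman's rho over the 11 animals (vertical axis) between the ratios at each cytosine and the mean profile of the other 3 segments, by distance in bp from the first cytosine of the cluster (horizontal axis), for plus strand (circles) and minus strand (triangles) cytosines; the dashed line marks 0.8. Of 272 points, 264 lie on or above the line, and the lowest, at 0.236, lies in segment 1.

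Outside the cluster, a rho of at least 0.8 with its mean profile together with a range of at least 0.5 was found at 252 of the 60398 cytosines whose ratios were not all equal (0.417%). None of these was on chromosome 20, and they lay on 30 chromosomes and scaffolds. The largest numbers were 71 and 25 on 2 unplaced scaffolds, 20 on chromosome 16 and 19 on chromosome 11. These are counts of single cytosines that share the 11 libraries with the cluster. They were not set against the number of cytosines listed on each chromosome or scaffold, so they do not show where such cytosines are more or less frequent.

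**Figure D3:**
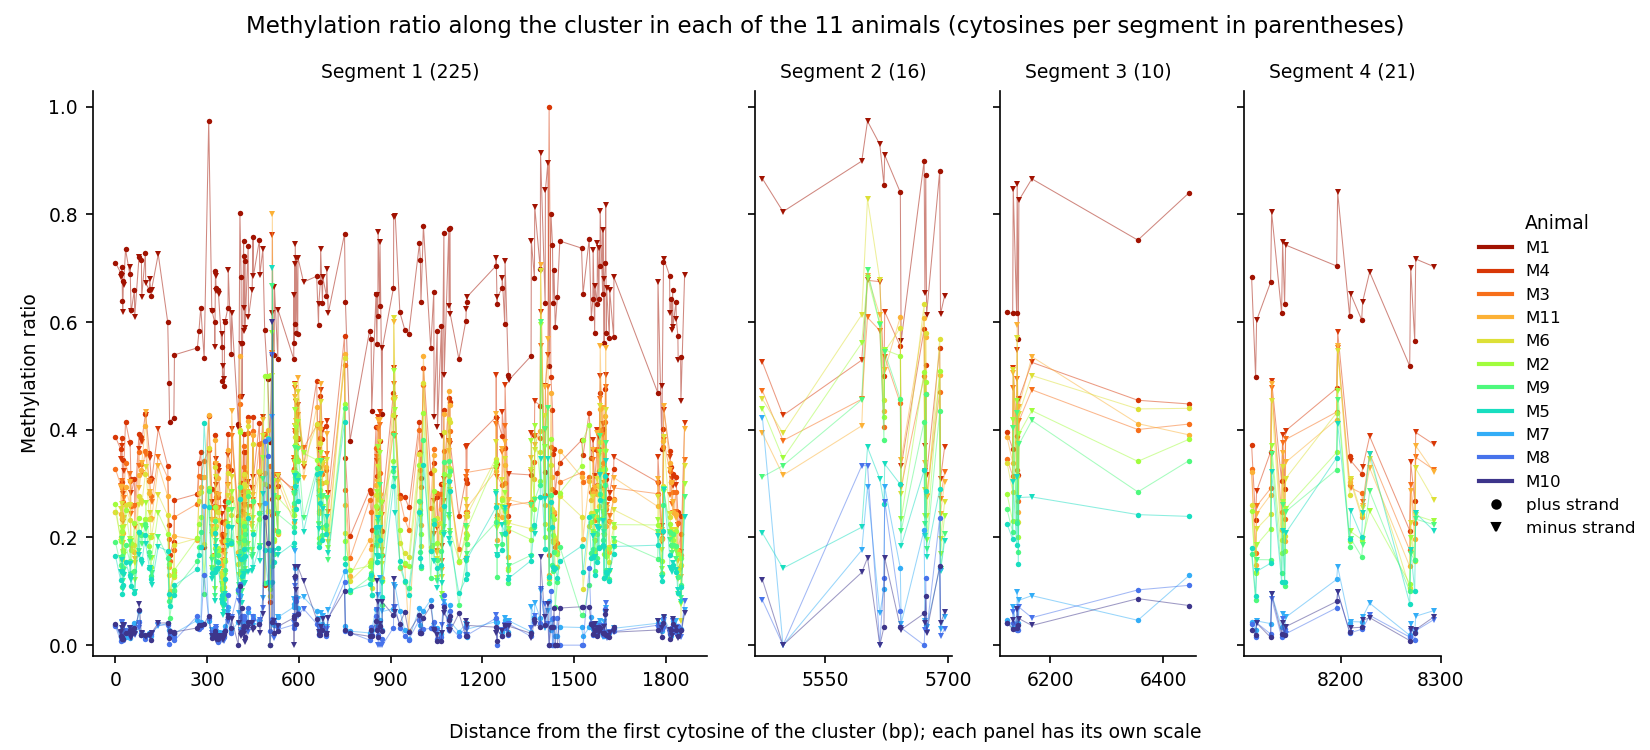
Methylation ratio (vertical axis, 0 to 1) at each of the 272 cytosines in each of the 11 animals (colours), by distance in bp from the first cytosine (horizontal axis, 1 panel per segment with its own scale), circles for the plus and triangles for the minus strand. Animal M1 lies above the others at 269 cytosines, and all animals rise from segment 1 to segment 2.

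The level along the cluster was then compared within animals, a contrast by which the cluster was not chosen. Segment 2 was the most methylated, with a mean ratio of 0.363 ± 0.213 (SD, n = 11), followed by segment 3 with 0.315 ± 0.206, segment 4 with 0.245 ± 0.180 and segment 1 with 0.232 ± 0.172. The step from segment 1 to segment 2 was 0.0308 in the lowest animal, 0.145 in the median and 0.220 in the highest, and it was upwards in 11 of 11 animals. The mean rise of 0.131 ± 0.0605 (SD, n = 11) passed the test with an adjusted p of 0.00214 (exact two-sided sign-flip permutation test over the animals, Benjamini-Hochberg adjusted over the 1156 pairs of adjacent segments of the table). A pair of segments was called at an adjusted p below 0.05 with a mean difference of at least 0.1, which held for 42.2% of the 1156 pairs, so a step of this kind was common in the table.

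From segment 2 to segment 3 the ratio was lower in 11 of 11 animals, with differences from -0.0835 to -0.00508, a median of -0.0502 and a mean of -0.0477 ± 0.0243 (SD, n = 11). From segment 3 to segment 4 it was again lower in 11 of 11, with differences from -0.127 to -0.0106, a median of -0.0774 and a mean of -0.0706 ± 0.0437 (SD, n = 11). Both had an adjusted p of 0.00214 by the same exact permutation test and Benjamini-Hochberg adjustment, but stayed below the minimum difference of 0.1 and were not called. The steps depended on the strand. With plus strand cytosines alone, the difference from segment 2 to segment 3 was -0.168 and was called, and with minus strand cytosines alone it was 0.0371, upwards in 8 of 11 animals, which did not pass the threshold (adjusted p of 0.0629). The rise from segment 1 to segment 2 was 0.185 with plus strand cytosines alone and was called. With minus strand cytosines alone, that rise was 0.0984, just under the minimum difference, and the difference from segment 3 to segment 4 was -0.10 and was called, upwards in 1 of 11 animals. With plus strand cytosines alone, the latter was -0.0348, upwards in 2 of 11 animals, and was not called.

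Within segment 1 the level was nearly even. In 10 stretches of 200 bp counted from its first cytosine, the mean ratio was lowest in the second and the last stretch, at 0.199 in both, and highest in the seventh, from 31040504 to 31040650, at 0.265 ± 0.188 (SD, n = 11). The means of single cytosines varied more, from 0.110 at 31039437 on the plus strand to 0.612 at 31039773 on the minus strand, with a median of 0.230 over the cluster. Pearson's r across the 272 cytosines had a median of 0.751 over the 55 pairs of animals and ranged from 0.248 between M1 and M8, the highest animal and one of the nearly unmethylated ones, to 0.946 between M6 and M9, both intermediate. Between M8 and M10, both nearly unmethylated, it was 0.826. These correlations are across cytosines, which share fragments and libraries and are not independent.

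Between neighbouring cytosines of the same strand at most 200 bp apart, 44 of the 263 steps in the cluster were called, compared with 20.5% of the 45077 steps of the table. A step was called by the same exact permutation test, at an adjusted p below 0.05 over the 45077 steps and a mean difference of at least 0.1. Of the 44 steps, 21 were upwards (9.67% of the steps of the table) and 23 downwards (10.8%), and 88 of the 263 steps had the same sign in all 11 animals, compared with 16.3% in the table. The 44 steps are 16.7% of the 263, below the share in the table. By segment, 33 of 223 were called in segment 1, 5 of 14 in segment 2, 0 of 7 in segment 3 and 6 of 19 in segment 4. In segment 3, where none was called, the largest step was 0.0612, and 5 of the 7 had an adjusted p below 0.05 without reaching the minimum difference.

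The largest step up and the largest step down met at the minus strand cytosine at 31039773. Its ratios were 0.423 in the lowest animal, 0.600 in the median and 0.80 in the highest, compared with 0.0573 to 0.735 at its left neighbour at 31039742 and 0.0132 to 0.665 at its right neighbour at 31039780. The nearly unmethylated animals of the cluster reached intermediate ratios here, with 0.423 in M7, 0.538 in M8 and 0.600 in M10, whereas animal M1 had 0.618 and was not the highest. The step up was 0.294 ± 0.186 (SD, n = 11), upwards in 10 of 11 animals, with an adjusted p of 0.0135 by the exact sign-flip permutation test (two-sided, Benjamini-Hochberg over 45077 steps). The step down was -0.362 ± 0.182 (SD, n = 11), downwards in 10 of 11 animals, with an adjusted p of 0.00937 by the same test and adjustment. Animal M1 was the exception in both steps. The peak was seen on the minus strand alone, since the plus strand cytosine of the same CpG, at 31039772, had ratios from 0.0406 to 0.541 with a median of 0.157.

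**Figure D4:**
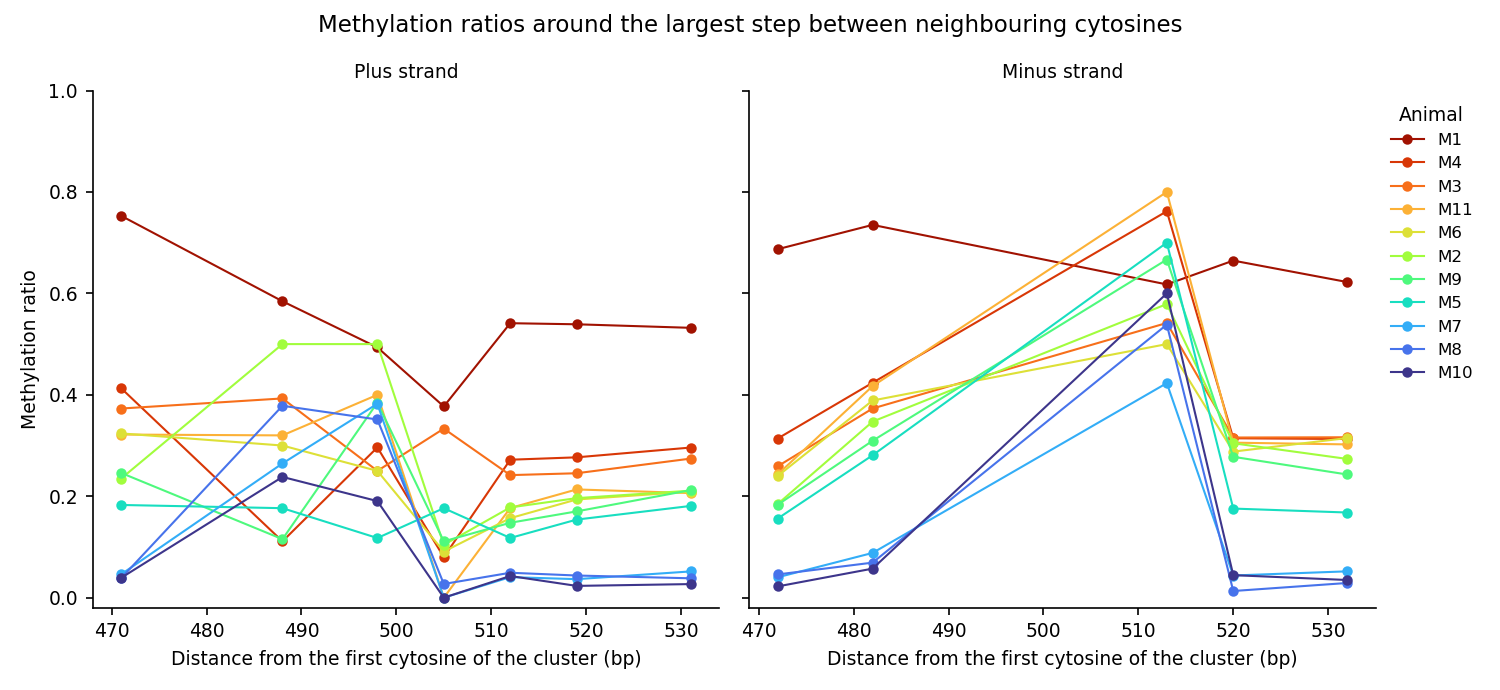
Methylation ratio (vertical axis) of the 11 animals (1 coloured line each) at plus strand (left) and minus strand (right) cytosines around the largest step, by distance in bp from the first cytosine of the cluster (horizontal axis). At the minus strand cytosine 513 bp from the first, all 11 animals lie between 0.423 and 0.80.

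Other steps were found on both strands of the same CpGs. The step between 2 neighbouring CpGs was listed on both strands for 88 pairs of CpGs, and its mean had the same direction on both strands in 76, compared with 62.6% of the 2712 such pairs of the table. In 7 of the 88 pairs the step was called on both strands, against 14.5% of the 2712, and all 7 had the same direction on the 2 strands, as did 74.2% of the 392 pairs called on both strands in the table. The means of the 88 steps correlated between the strands with r = 0.740, across pairs of CpGs that share animals and neighbours. From the CpG at 31040132 to the CpG at 31040169 the ratio rose by 0.193 ± 0.112 (SD, n = 11) for the plus strand and by 0.224 ± 0.135 for the minus strand, in 11 of 11 animals on both. The CpG at 31040862 formed a narrow peak on both strands. From its left neighbour, 4 bp away, the ratio rose by 0.141 ± 0.0646 (plus strand) and 0.139 ± 0.0759 (minus strand), and to its right neighbour, 3 bp away, it changed by -0.135 ± 0.0606 and -0.176 ± 0.0881, each in 11 of 11 animals. The CpG at 31047456 in segment 4 was a peak of the same kind, with steps of 0.158 and 0.161 into it and of -0.115 and -0.191 out of it. These CpGs were chosen for display after their values were seen.

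At the 103 CpGs listed on both strands, the plus strand mean was 0.232 and the minus strand mean 0.249. A strand difference was called at 13 of the 103 CpGs, compared with 26.4% of the 4043 such CpGs of the table, by the exact two-sided sign-flip permutation test at an adjusted p below 0.05 (Benjamini-Hochberg over the 4043) and a mean difference of at least 0.1. A higher plus strand was called at 4 of the 103, against 12.2% of the 4043, and a higher minus strand at 9 of the 103, against 14.2%. The share called, 12.6%, was thus below that of the table, as were the shares in both directions. The median absolute difference was 0.0441, 53 CpGs were within 0.05 and 2 were more than 0.2 apart, although 80 of the 103 had an adjusted p below 0.05, compared with 39.6% of the 4043. Most strand differences of the cluster were thus small, whether or not they passed the adjusted threshold.

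The calls were at 3 of 86 CpGs in segment 1, 5 of 5 in segment 2, 3 of 3 in segment 3 and 2 of 9 in segment 4. The largest difference was at 31039772 and 31039773, the CpG of the largest steps. Plus minus minus strand ratios there ranged from -0.623 to -0.0765 with a median of -0.489, and the minus strand was higher in 11 of 11 animals. The mean was -0.433 ± 0.156 (SD, n = 11), with an adjusted p of 0.00453 by the exact permutation test with Benjamini-Hochberg adjustment. The smallest difference was at 31039608 and 31039609, with plus strand ratios from 0.0169 to 0.554, minus strand ratios from 0.0102 to 0.577 and a mean difference of -0.000243 ± 0.0117 (SD, n = 11). The 2 strands of that CpG gave nearly the same value in every animal.

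The sign of the strand difference ran in blocks along the cluster. Counting a new block wherever the sign of the mean difference changed or a segment ended, there were 16 blocks. Blocks 1 to 7, from 31039277 to 31039640 in segment 1, held 1 to 5 CpGs each, and in none were all animals on 1 side. The plus strand was higher on average in 1 to 10 of 11 animals there. Over the last 6 CpGs of segment 1, from 31041072 to 31041109, it was higher on average in 9 of 11. In segment 1 the longest was that of 25 CpGs from 31040406 to 31041053. There the minus strand was higher on average in 11 of 11 animals, and the mean plus minus minus strand difference of an animal ranged from -0.0961 to -0.00933. This block was preceded by 6 CpGs from 31040301 to 31040355. There the plus strand was higher on average in 11 of 11 animals, with a mean difference of 0.0807 ± 0.0580 (SD, n = 11). Before these, the minus strand was higher on average in 11 of 11 animals over 17 CpGs from 31039772 to 31040170. Over the 9 CpGs from 31039662 to 31039732, the plus strand was higher on average in 11 of 11. Single CpGs did not always share this. At 31040865 in the longest block, the minus strand was higher in 5 of 11 animals, and at 31040326 the plus strand was higher in 8. In segment 2 the sign turned between neighbouring CpGs. At 31044882 the minus strand was higher in 11 of 11 animals, by a mean of 0.118. Over the 4 CpGs from 31044902 to 31044951 the plus strand was higher, by a mean of 0.199 ± 0.0978 (SD, n = 11). This held on average over the 4 CpGs in 11 of 11 animals, and at the single CpG at 31044931 in 10. This turn came with a drop of the minus strand alone, since from 31044883 to 31044903 its ratio changed by -0.248 ± 0.0721 (SD, n = 11), downwards in 11 of 11 animals. In segments 3 and 4 the minus strand was higher on average in 11 of 11 animals. The blocks were drawn from the values and carry no test of their own, and their cause was not tested.

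**Figure D5:**
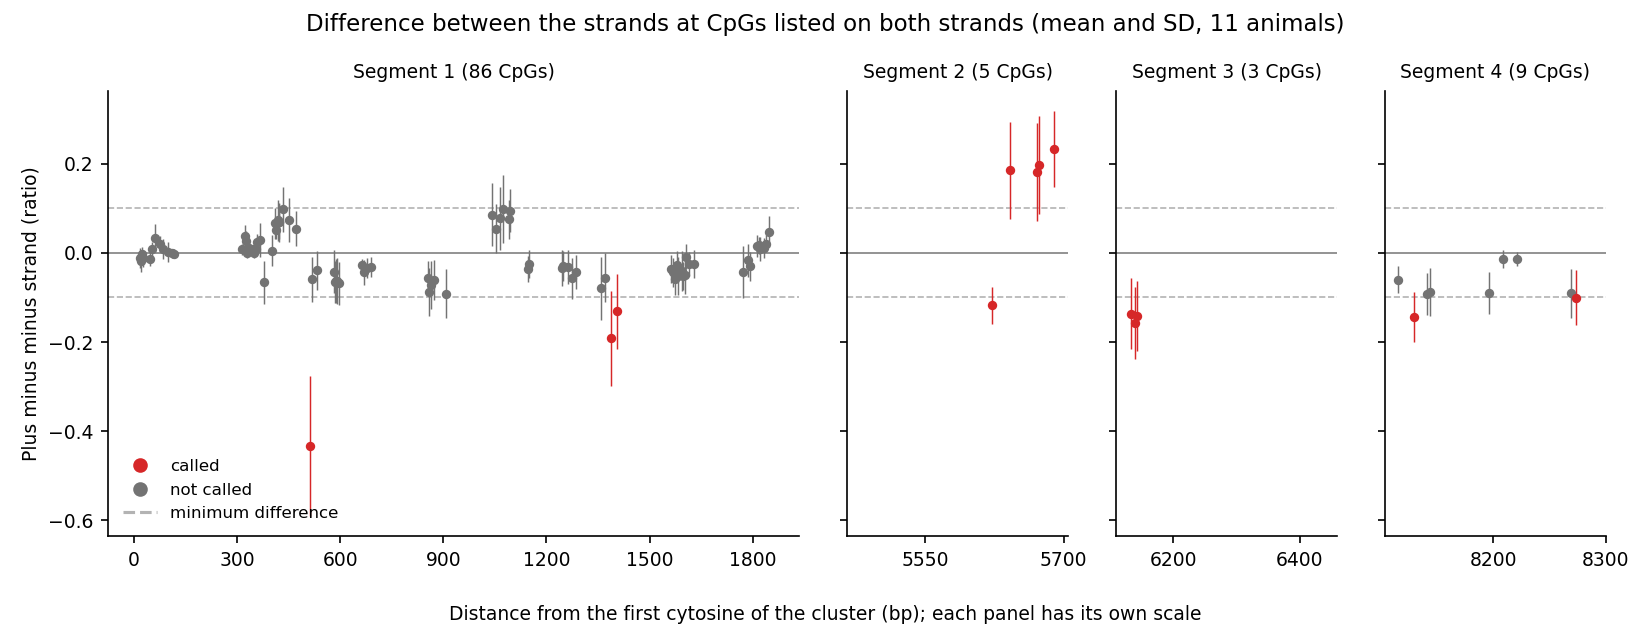
Mean difference between plus and minus strand ratio (vertical axis, positive where the plus strand is higher) at each of the 103 CpGs listed on both strands, with the SD over 11 animals as bars, by distance in bp from the first cytosine (horizontal axis, 1 panel per segment). Red points mark the 13 called CpGs and dashed lines the minimum difference of 0.1; in segment 2, 4 CpGs lie above the upper line.

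Whatever the difference in level, the strands ranked the animals alike. Spearman's rho between the 2 strands of a CpG over the 11 animals had a median of 0.964. It was at least 0.8 at 102 of the 103 CpGs, the exception being 31039772 and 31039773 with 0.400. In the table it reached 0.8 at 9.01% of the 3952 CpGs whose ratios were not all equal on either strand. The cluster was chosen for wide differences between animals, with a median range of 0.628 against 0.142 outside. A high rho over animals therefore follows in part from that choice, and the 2 shares are a description. Within an animal, Pearson's r between plus and minus strand ratios across the 103 CpGs ranged from 0.236 in M10 to 0.494 in M4, with a median of 0.410 over the 11 animals. These values pool segments that differed. The r ranged from 0.298 to 0.627 over the 86 CpGs of segment 1 and from 0.598 to 0.902 over the 9 of segment 4, whereas over the 5 of segment 2 it ranged from -0.863 to 0.0506. Over the 3 CpGs of segment 3 it ranged from -0.798 to 0.999. With the 7 animals of lower background, no strand difference and no step was called anywhere in the table by the exact permutation test. The smallest p that 7 animals allow is 0.0156, and after adjustment over each family the smallest was 0.0595 for strand differences and 0.0819 for steps. In the cluster, 67 of the 103 strand differences and 133 of the 263 steps then had an unadjusted p below 0.05, compared with 36.1% of the 4043 and 27.1% of the 45077 in the table.

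The cytosines with the largest and the smallest SD of each segment show how far the animals differed at single positions. In segment 1 the largest SD, 0.292, was at 31040678 on the plus strand, where the ratio was 1 in animal M4, 0.518 in M1 and between 0 and 0.216 in the other 9. The ratio of M4 is the only ratio of exactly 1 in the cluster, and it set this SD. The smallest SD of segment 1, 0.0977, was at 31039663 on the minus strand, with ratios from 0.0405 to 0.401 and a median of 0.159. In segment 2 the ratios at 31044877 on the minus strand (SD 0.316) ranged from 0 to 0.930 with a median of 0.595, and those at 31044903 on the minus strand (SD 0.161) from 0.0288 to 0.565 with a median of 0.234. Both had M1 at the top, and 3 animals at or near 0. In segment 3 the ratios ranged from 0.0653 to 0.856 with a median of 0.453 at 31045401 on the minus strand (SD 0.251), and from 0.0276 to 0.569 with a median of 0.201 at 31045403 on the plus strand (SD 0.155). In segment 4 they ranged from 0.0986 to 0.841 with a median of 0.472 at 31047457 on the minus strand (SD 0.232), and from 0.0147 to 0.498 with a median of 0.133 at 31047375 on the plus strand (SD 0.136). In all 4 segments the cytosine with the larger SD had the higher mean ratio, with 0.225 against 0.157 in segment 1 and 0.458 against 0.231 in segment 2. In segment 1 its median was the lower one, 0.126 against 0.159. In segments 3 and 4 the larger SD was on the minus strand and the smaller on the plus strand. This rests on 1 pair of cytosines per segment, picked by their SD.

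Ratios of exactly 0 were rare in the cluster. They occurred at 14 of the 272 cytosines in animal M8, 8 in M10, 3 in M7 and 1 in M11, and in no other animal. As shares of the 272 cytosines, these were 5.15%, 2.94%, 1.10% and 0.368%, whereas the share outside the cluster was between 12.6% and 28.6% in each animal. The cytosines outside were not matched by level, and no cytosine of the cluster had a mean ratio below 0.110. The 3 nearly unmethylated animals thus had low ratios rather than ratios of 0, with medians over the cluster of 0.0384 in M7, 0.0299 in M8 and 0.0320 in M10.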

How the data were processed

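Methylation of 11 muscle biopsies was measured by RRBS. Per the study's methods, low-quality bases (below 20) were trimmed and reads were mapped with RRBSMAP against the macaque genome published by Yan et al. The authors kept CpGs covered by at least 10 reads and took ratios from methratio. The deposited values are the methylation ratio of each cytosine and animal, without read counts and without normalization between animals. No value was missing, and 0 columns of other samples were present.

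Segments, strand differences, steps and segment differences were computed with Python 3.11.15, numpy 2.4.6 and pandas 2.3.3, and plots with matplotlib 3.10.9. Each test counted all 2048 sign patterns over the animals, so the smallest p is 0.000977, and was run and adjusted over the whole table. The calculations were tested on simulated data. Shifted values were recovered, except that a few shifted steps among many were not, because the smallest p passes the adjustment only where many steps differ.

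The members and lists were chosen with earlier results of these data known. Cytosines named are those with the largest and smallest SD in a segment, the largest and smallest strand difference, the largest steps, and those next to either bound, and others are said to be chosen after their values were seen. The alternatives were leaving out animals, an arcsine square root scale, other minimum differences and bounds, medians, other gaps and reaches, single strands, CpGs counted once, leaving out ratios of exactly 0 or 1, and Pearson's r. Coverage, gene annotation and sequence were not used here.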

Additional observations from a re-analysis of the deposited data

How the results depend on the processing

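Of the 189 values recomputed under the alternatives, 176 were rated as unchanged, by a rule that differed with the kind of value. Differences between 2 segments had to keep their direction and their side of the threshold. Mean ratios, ranges of animal means and median rho had to move by less than the spread. Counts and shares had only to stay within a fixed factor. For example, 18 called strand differences with the median difference, in place of 13, were rated as unchanged. A minimum difference of 0.2 left 2 called strand differences, 6 called steps and 0 called segment differences, the rise of 0.131 from segment 1 to segment 2 no longer being called, which follows from the stricter bound. Without the 4 animals of higher background, 0 strand differences and 0 steps were called by the exact permutation test, in the cluster as in the whole table, where the smallest adjusted p was 0.0595 for strand differences and 0.0819 for steps. At an unadjusted p below 0.05 there were 67 of 103 strand differences and 133 of 263 steps, compared with 36.1% and 27.1% in the table. The rise from segment 1 to segment 2 was still called with these 7 animals, at 0.130 and an adjusted p of 0.0311, as were 39.3% of the segment pairs of the table. Plus strand cytosines alone gave 2 called segment differences, 0.185 from segment 1 to segment 2 and -0.168 from segment 2 to segment 3. Minus strand cytosines alone gave 0.0984, 0.0371 and -0.10 for the 3 successive differences. The second was upwards in 8 of 11 animals and not past the threshold (adjusted p of 0.0629 by the exact permutation test). The difference from segment 3 to segment 4 was -0.0348 with plus strand cytosines alone and was not called. The cause was not tested. With each animal left out in turn, 12 to 16 strand differences, 40 to 49 steps and 1 segment difference were called. The segment differences were 0.122 to 0.141, -0.0520 to -0.0441 and -0.0766 to -0.0649. The mean ratio was 0.203 to 0.264, the range of animal means 31.6 to 61.0 percentage points, and 12 to 242 cytosines had a range of at least 0.5, the lowest values of the last 2 being those without animal M1. The median rho was 0.939 to 0.976, and 254 to 266 cytosines reached 0.8. Depth is unknown, so the counting error of a ratio could not be separated from the differences between animals, and an alternative coverage minimum was not run because it needs read counts.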
